A study of Mus musculus with 12 samples.

Results

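The translation of untreated mouse embryonic fibroblasts was described gene by gene, as the share of ribosome footprints that a gene takes compared with its share of total RNA. Only the untreated libraries enter: 3 footprint libraries and 3 total RNA libraries, 6 of the 12 in the series. Of 21422 protein-coding genes listed in the count tables, 11948 had at least 1 count in these 6 libraries and 8624 had a mean of the 2 assays' mean CPM of at least 10 (CPM, counts scaled to a common library total), and these 8624 were tested.

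The study set untreated fibroblasts against fibroblasts given halofuginone, a drug that occupies the proline site of the tRNA synthetase encoded by Eprs. MEF cells, connective tissue cells grown from mouse embryos, were labelled without strain, genotype, age or passage, and whether replicates were grown apart is not labelled, so the p-values below may reflect technical spread alone. Both groups were held for 6 h in high-glucose medium with dialyzed serum, which is poor in free amino acids and other small molecules, and the control cells therefore shared this medium and differed only in having no halofuginone (100 nM in the treated cells). Total RNA was fragmented with alkali, and footprints are the pieces of mRNA that a ribosome shields from RNase I, taken here from monosomes separated on sucrose.

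Untreated RNA libraries held 718096 to 1295434 counts and untreated footprint libraries 724609 to 2527791. Nuclear protein-coding genes took 73.9% to 76.2% of the RNA counts and 95.3% to 96.4% of the footprint counts. Gm42418, a gene model that overlaps ribosomal RNA, took 11.8% to 13.7% of RNA counts but 1.12% of footprint replicate 1 and 0.0933% and 0.0977% of replicates 2 and 3, so footprint replicate 1 stood apart in this one measure. All shares below are therefore of nuclear protein-coding counts, which leave Gm42418 out. The 14 fibroblast markers checked summed to 10313 to 10755 CPM in the RNA libraries, with 11 of them above 3 counts in all and Dcn, Lum and Postn at 0. Epithelial, endothelial and skeletal muscle markers summed to at most 2.09 CPM in RNA, with Epcam, Cdh1, Pecam1, Cdh5 and Myod1 at 0. Neural markers summed to 418 to 472 CPM, nearly all of it Nes, and cartilage markers to 152 to 184 CPM, nearly all of it Sox9. In such bulk samples, fewer cells of a type and less RNA per cell cannot be told apart.

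An mRNA yields footprints in proportion to the ribosomes on it, so footprints divided by RNA is a common measure of how heavily an mRNA is translated, called translational efficiency. Initiation usually sets it: the 5′ end has to be bound and scanned, and upstream reading frames, iron-binding protein sites, terminal oligopyrimidine tracts and secondary structure there are known to slow or gate that step. The ratio also counts ribosomes that are slow or paused, and it says nothing of how many ribosomes a cell has, because each assay is scaled to its own total.

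In the untreated cells, ribosomes were spread over mRNAs less evenly than the mRNAs themselves. The 702 most abundant genes made up 50% of the footprints, against 1158 for 50% of the RNA, and the 10 most abundant genes held 6.18% of footprints and 3.72% of RNA. Across the 8624 genes, the log2 ratio of footprints to RNA had a median of -0.29, quartiles of -1.10 and 0.43, and a 5th and a 95th percentile of -2.54 and 1.37, which lie 15.1-fold apart. A log2 ratio of 0 means the same share of counts in both assays. Mean log2 levels in RNA and footprints were related across genes with a Pearson r of 0.739 and a Spearman rho of 0.729, given as a description since genes are not independent.

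By edgeR's quasi-likelihood test at an adjusted p of 0.05, 1858 genes (21.5%) took a higher share of footprints than of RNA and 3341 (38.7%) a lower share. At least 2-fold differences were called for 842 genes (9.76%) on the higher side and 2314 (26.8%) on the lower. With the median gene set to 0 in place of equal shares, which moves every log2 value up by 0.29, the calls were 2583 higher (30.0%) and 2534 lower (29.4%), of which 1424 (16.5%) and 1732 (20.1%) were at least 2-fold, so the split between the sides depends on the zero point while the order of genes does not. Members of the gene lists below that did not reach 10 CPM were left untested. Counts of list members called higher or lower are to be read beside the shares of all genes, 21.5% and 38.7%. In 2033 genes (23.6%) all 3 footprint libraries lay above all 3 RNA libraries, and in 3496 (40.5%) they all lay below. An exact permutation test of a single gene with 3 libraries against 3 cannot go below 0.1, so the model fitted across all genes was used.

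**Figure D1:**
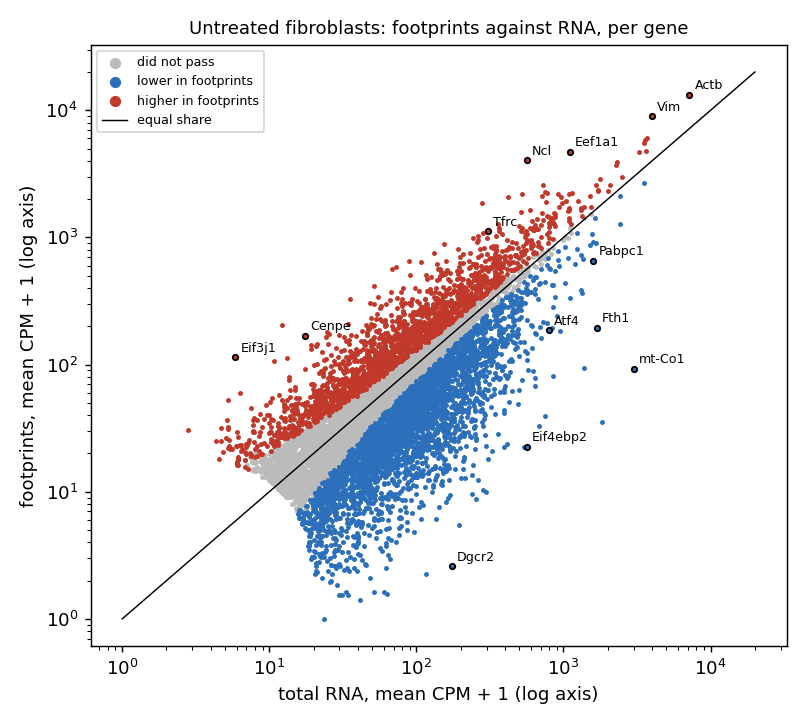
Mean CPM plus 1 in total RNA (horizontal, log axis) against footprints (vertical, log axis) for the 8624 tested protein-coding genes of untreated cells, with the line of equal share. Red and blue points passed the test on the higher (1858) and the lower (3341) side; the empty lower left corner is the filter at a mean of 10 CPM.

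The background of the footprint libraries was read from RNAs listed as non-coding. Malat1, a nuclear RNA of splicing speckles, had 1564, 1887 and 1856 CPM in the RNA libraries and 144, 124 and 94.7 CPM in the footprint libraries. Neat1, the scaffold of nuclear paraspeckles, had 134, 191 and 134 CPM in RNA and 4.98, 12.5 and 0.00 in footprints. Rn7sk, the small nuclear RNA that holds back the elongation factor P-TEFb, had 6363, 5365 and 5936 CPM in RNA and 27.0, 15.7 and 44.5 in footprints. Footprint and RNA libraries did not overlap for any of these 3.

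Among 26 non-coding RNAs with enough counts for a ratio, all 26 had a log2 ratio under 0 and 23 under -1. They include Rn7sk, Rpph1, Terc and the Gm42418 model, which RefSeq does not class as long non-coding RNAs. Gm26917, listed with the nuclear RNAs, matched no RefSeq gene type. The 6 nuclear RNAs had a median of -3.16, and the 13 hosts of small nucleolar RNAs, spliced RNAs that reach the cytoplasm, a median of -1.61. Gas5, one such host, had 235, 224 and 192 CPM in RNA against 84.6, 70.2 and 97.6 in footprints, and Snhg5 came nearest to equal shares, with a log2 ratio of -0.22. Of the 8624 protein-coding genes, 202 (2.34%) lay at or below the median of the nuclear RNAs, 10 of them encoded by mitochondrial DNA. Another nuclear RNA that reached 10 CPM, 2900097C17Rik, had 53 RNA counts and 2 footprint counts and was given no ratio. With it the median would be lower, and fewer protein-coding genes would lie at or below it.

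Mitochondrially encoded mRNAs, which are read by the ribosomes of the mitochondrion and not by cytosolic ones, were nearly empty of footprints. All 11 tested were lower in footprints, with a median log2 ratio of -4.36, and together they came to 0.852% ± 0.0542 of nuclear protein-coding counts in RNA and 0.0363% ± 0.00268 in footprints (SD, n = 3 each). The transcript of mt-Co1, the catalytic subunit of cytochrome oxidase, had 3026, 2869 and 3133 CPM in RNA and 114, 77.1 and 83.2 in footprints, a log2 ratio of -4.99 (SE 0.09). For mt-Cytb, the cytochrome of complex III, the values were 1333, 1286 and 1528 CPM in RNA and 89.6, 86.5 and 102 in footprints. RNA lay far above footprints in every library for both. Only 3 footprint counts fell on mt-Co3 in all libraries together, against 133 RNA counts, so its ratio has a wide counting error.

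Nuclear-encoded subunits of the respiratory chain, most of which share complexes with those products, stood on the other side. Of 74 tested, 43 were higher in footprints (58.1%) and 5 lower (6.76%), against 21.5% and 38.7% of all genes. The median of the 74 was 0.59. Ndufa13, a subunit of complex I, had 79.5, 73.4 and 46.0 CPM in RNA and 264, 228 and 245 in footprints (log2 ratio 1.89, SE 0.17). Sdhb, the iron-sulfur subunit of complex II, was among the 5 lower ones at -0.91, with 192, 248 and 176 CPM in RNA and 102, 108 and 118 in footprints. Proteins of the mitochondrial ribosome were nearer to the middle, with 23 of 77 higher (29.9%), 8 lower (10.4%) and a median of 0.07. Mrps31, a small-subunit protein, was at 1.29, and Mrpl57, a large-subunit protein, at -1.94.

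**Figure D2:**
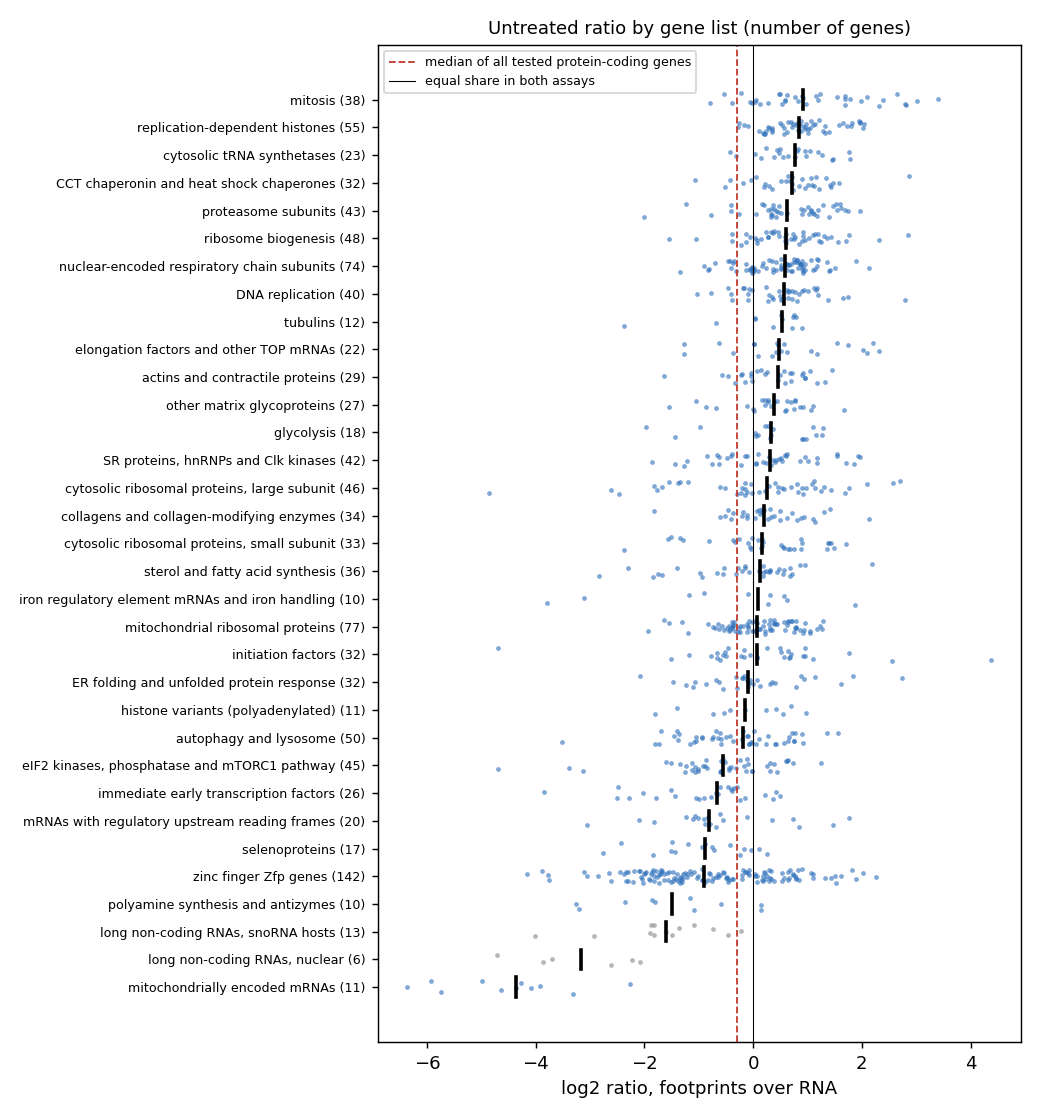
Log2 ratio of footprints to RNA in untreated cells for each tested gene of 31 gene lists (blue, number of genes in brackets) and 2 groups of long non-coding RNAs (grey), with black bars at each median, the dashed line at the median of all tested genes (-0.29) and the solid line at equal shares. Mitosis genes (median 0.91) and replication-dependent histones (0.84) lie at one end and mitochondrially encoded mRNAs (-4.36) at the other.

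Ferritin mRNAs and the mRNA of the transferrin receptor lay on opposite sides. Ferritin stores iron and the transferrin receptor takes it up; an iron regulatory element in the 5′ end of ferritin mRNAs is known to hold back their translation when iron is scarce, while those of Tfrc lie in its 3′ end and stabilize the mRNA. Fth1, the ferritin heavy chain (chr19:9980600-9985111, the whole gene in GRCm38.p6), had 1798, 1546 and 1708 CPM in RNA and 191, 220 and 171 in footprints. That is 8.59-fold less in footprints, a log2 ratio of -3.10 (SE 0.09, adjusted p = 2.92e-29, edgeR).

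Ftl1, the ferritin light chain, had 123, 105 and 104 CPM in RNA and 12.03, 4.39 and 4.31 in footprints (log2 ratio -3.78, SE 0.31), with near-identical copies that make its counts uncertain. Tfrc had 266, 323 and 329 CPM in RNA and 1124, 1138 and 1086 in footprints, 3.68-fold more (log2 ratio 1.88, SE 0.09). In none of these 3 genes did the libraries of the assays overlap. The remaining mRNAs of iron handling lay between: Slc11a2, an iron importer, was lower at -1.17, Ireb2, an iron regulatory protein, higher at 0.56, and Aco1, the other regulatory protein, did not pass at -0.10. Ireb2 no longer passed without RNA replicate 3 (0.47, adjusted p = 0.0509, edgeR) or footprint replicate 1 (0.47, adjusted p = 0.0733). Over the list of 10, 4 were higher (40%) and 4 lower (40%), against 21.5% and 38.7% of all genes.

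Polyamine synthesis was the nuclear-encoded list with the lowest median, -1.48 over 10 tested of 15 listed genes, of which 0 were higher and 8 lower. Relative to all genes that median was -1.19. It was -0.81 and -0.88 with other filters on low counts and -0.86 without RNA replicate 1. Its genes are known for translational control by polyamines through upstream reading frames and, in the antizymes, a programmed frameshift. Odc1, ornithine decarboxylase, the first enzyme of the pathway, had 157, 121 and 165 CPM in RNA and 42.7, 30.1 and 61.7 in footprints (log2 ratio -1.81, SE 0.21). Oaz1, the antizyme that sends Odc1 protein to the proteasome, had 109, 64.2 and 85.3 CPM in RNA and 8.30, 10.7 and 10.0 in footprints (log2 ratio -3.19, SE 0.31). Amd1, S-adenosylmethionine decarboxylase, had 20.9, 23.8 and 18.9 CPM in RNA and 2.90, 0.627 and 2.87 in footprints, from 10 footprint counts in all.

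RNA lay above footprints in every library for these 3 polyamine genes. Azin1, the antizyme inhibitor, was lower by less, at -0.59, and no longer passed with the median gene set to 0 (-0.30, adjusted p = 0.0637, edgeR). Srm, spermidine synthase, at 0.15, and Sat1, the acetylase that starts polyamine breakdown, at 0.15, did not pass, although Srm was higher with the median gene set to 0 (adjusted p = 0.000326, edgeR). Counts of Oaz1 and Amd1 can include near-identical copies.

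Selenoproteins insert selenocysteine at a UGA codon that is otherwise a stop. Of 21 listed, 17 were tested, 0 of them higher and 12 lower (70.6%), against 21.5% and 38.7% of all genes. The median of the 17 was -0.89. Selenow had 99.3, 130 and 148 CPM in RNA and 16.2, 18.2 and 23.0 in footprints (log2 ratio -2.77, SE 0.25). Gpx4, the peroxidase that reduces lipid peroxides, was lower at -1.44, Gpx1, the cytosolic peroxidase, at -0.76 and Txnrd1, the cytosolic thioredoxin reductase, at -0.42, whereas Txnrd2, the mitochondrial one, did not pass at 0.25. The 12 lower members thus ran from -2.77 to -0.42, and 10 were lower with the median gene set to 0, Txnrd1 not among them.

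mRNAs with known regulatory upstream reading frames were more often lower than higher. Of 20 tested, 12 were lower (60%) and 4 higher (20%), against 38.7% and 21.5% of all genes, with a median of -0.81. With the median gene set to 0, 9 were lower and 5 higher. Relative to all genes the list's median was -0.52, and -0.39 without footprint replicate 3. Atf4, the transcription factor of the integrated stress response (chr15:80255184-80257545), whose upstream frames keep ribosomes off the main frame in unstressed cells, had 784, 860 and 738 CPM in RNA and 182, 186 and 191 in footprints. Its share was 4.27-fold lower in footprints (log2 ratio -2.09, SE 0.10, adjusted p = 1.96e-21, edgeR), with no overlap between libraries. The count may include footprints on the upstream frames, since what was counted along a gene is not known here.

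Others of this kind were Bcl2l11, a pro-death BCL2 family protein, at -3.06 from 23 footprint counts, and Rbpj, the DNA-binding partner of Notch, at -1.83. The eIF2 phosphatase subunits Ppp1r15a and Ppp1r15b were at -1.24 and -1.08. Without RNA replicate 3 or without footprint replicate 1, Ppp1r15a no longer passed (adjusted p = 0.0634 and 0.0517, edgeR). Mdm2, the p53 ubiquitin ligase, at -0.78, Cebpb, a transcription factor, at -0.69, and Ibtk at -0.88 passed here but not with the median gene set to 0. Ibtk also failed without RNA replicate 3 (-0.49, adjusted p = 0.239, edgeR) and without footprint replicate 2 (-0.80, adjusted p = 0.0563).

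Atf5, another stress transcription factor, was even, with 63.8, 67.9 and 54.1 CPM in RNA and 58.5, 51.4 and 63.1 in footprints, values that overlapped. Its log2 ratio of -0.11 turned to 0.18 with the median gene set to 0, and it passed in neither. The 4 higher genes were Eprs at 1.77, Uchl5, a proteasome-bound deubiquitinase, at 1.48, Tmem184c at 0.84 and Ifrd1 at 0.74. Tmem184c failed in DESeq2 (adjusted p = 0.0782) and in edgeR without RNA replicate 1, RNA replicate 2 or footprint replicate 1 (0.62 to 0.84). Ddit3 had 18 RNA and 24 footprint counts and was not tested.

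Regulators of translation were measured as well. Of the eIF2 kinase, eIF2 phosphatase and mTORC1 list, 4 of 45 genes were higher and 18 lower, with a median of -0.55. Eif4ebp2, a repressor of the cap-binding protein eIF4E that mTORC1 inactivates, had the lowest ratio of the list, with 636, 525 and 526 CPM in RNA and 23.2, 18.8 and 23.0 in footprints (log2 ratio -4.70, SE 0.15). Eif4ebp1, its sister, was at -1.51 and Larp1, a repressor that binds terminal oligopyrimidine mRNAs, at -1.34. Castor2, related to the arginine sensor, had 29.3, 38.5 and 48.7 CPM in RNA and 2.49, 6.89 and 0.00 in footprints. In these 4 genes, RNA lay above footprints in every library. Tbc1d7, a subunit of the TSC complex that inhibits mTORC1, did not pass at 0.64, with overlapping libraries. The list's shares, 8.89% higher and 40.0% lower, compare with 21.5% and 38.7% of all genes.

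Lamtor1, the membrane anchor of the Ragulator complex, was at -3.12 and Rragc, a Rag GTPase, at -1.25, while Rraga, its partner, was higher at 0.73. The kinase Mtor itself did not pass at -0.23, nor did the eIF2 kinase Eif2ak4 (GCN2) at -0.60 or Eif2ak1 at -0.45. Eif2ak3 (PERK) was lower at -1.06 and Eif2ak2 (PKR) higher at 1.25, from 56 RNA counts. Of the 4 eIF2 kinases, 1 thus passed as higher, 1 as lower and 2 did not pass, and with the median gene set to 0 Eif2ak3 did not pass either. Eif2ak3 also failed without RNA replicate 3 (-0.66, adjusted p = 0.275, edgeR), without footprint replicate 1 (-0.68, adjusted p = 0.227) and in DESeq2 (adjusted p = 0.0681). Eif2ak1 and Eif2ak4 passed as lower when some single libraries were left out, for example Eif2ak1 without RNA replicate 2 (-0.64, adjusted p = 0.00944) and Eif2ak4 without RNA replicate 1 (-0.77, adjusted p = 0.0281).

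Initiation factors lay on both sides, and more often on the higher one than genes in general. Of 32 tested on this list, which holds some repressors of initiation, 14 were higher (43.75%) and 10 lower (31.25%), with a median of 0.07. Of all genes, 21.5% were higher and 38.7% lower. On the list, 17 were higher and 6 lower with the median gene set to 0. Scaffolds were low: Eif4g1 at -0.55, Eif4g2, known for its start at a GUG codon, at -0.78 and Eif4g3 at -0.61. Subunits of eIF2, which brings the initiator tRNA, were at 0.70 for Eif2s1 and 0.95 for Eif2s2, with Eif2s3x not passing at 0.56, and those of its exchange factor eIF2B at 0.56, 0.65, 0.95 and 0.91 for Eif2b1 to Eif2b4, with Eif2b5 not passing at -0.17. Eif5b, which joins the subunits, had 43.9, 47.7 and 59.6 CPM in RNA and 310, 279 and 301 in footprints (log2 ratio 2.56, SE 0.17). With the median gene set to 0, Eif4g3 did not pass and Eif2s3x was higher.

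The highest ratio of all tested genes was that of Eif3j1, an eIF3-associated factor, at 4.38, from only 12 RNA counts. It overlaps Spg11 and has a near-identical copy, Eif3j2, so its counts are uncertain.

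Ribosomal protein mRNAs were spread over both sides. They are known to start with a terminal oligopyrimidine (TOP) tract, a C followed by pyrimidines, through which mTORC1 is known to control them. Of all genes, 21.5% were higher and 38.7% lower. Of 33 small-subunit genes, 17 were higher (51.5%) and 7 lower (21.2%), with a median of 0.17. Of 46 large-subunit genes, 21 were higher (45.7%) and 11 lower (23.9%), with a median of 0.25. Their summed share went from 0.893% ± 0.0588 to 1.15% ± 0.00866 for the small subunit and from 0.998% ± 0.0243 to 1.495% ± 0.00731 for the large (SD, n = 3). Rpl38, a large-subunit protein, had 141, 167 and 149 CPM in RNA and 971, 894 and 812 in footprints (log2 ratio 2.57, SE 0.11). Rplp1, an acidic stalk protein, had 253, 215 and 206 CPM in RNA and 40.2, 32.0 and 56.0 in footprints (log2 ratio -2.47, SE 0.19). Neither gene's assays overlapped, and they pointed in opposite directions.

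The lowest ribosomal protein gene was Rpl13a at -4.85, from 147 RNA counts and 10 footprint counts. Further low members were Rpl39 at -2.61 and Rps12 at -2.37, and further high ones Rpl22l1 at 2.71, Rpl9 at 2.09 and Rps15 at 1.70. Many of these genes have processed copies elsewhere in the genome, and the handling of reads with several matches is not known here, so single values are uncertain.

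The letters at the start of the gene were set beside these ratios. Those searched on the sense strand were a C followed by at least 4 letters that are each C or T, beginning at the annotated start in the RefSeq table for GRCm38.p6. They were found at 2.51% of 32851 starts, at 217 of the 7030 tested genes with a start in the table (3.09%) and at 14 of 60 ribosomal protein genes (23.3%). The annotated start can lie some bases from the one used in these cells, so a start without the letters says only that they are not at that position. With the letters, ribosomal protein genes had a median log2 ratio of 0.54, with 8 of 14 higher and 3 lower, and without them 0.34. Over all 217 tested genes with the letters the median was -0.36, against -0.30 in those without. No test was made of these medians.

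The starts of 6 of these genes are shown because similar tracts stand beside very different ratios, with 10 bases before the start and 15 from it, 5′ to 3′ on the gene's own strand, and the tract in capitals.
Rpl38 (chr11:114668570-114668594): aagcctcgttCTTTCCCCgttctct
Rpl28 (chr7:4792955-4792979): tctcgtgtctCTCTTTCCgtctccg
Rps18 (chr17:33955651-33955675): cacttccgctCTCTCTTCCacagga
Rps6 (chr4:86857353-86857377): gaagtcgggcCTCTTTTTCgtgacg
Rpl35a (chr16:33056472-33056496): gcttgccttcCTCTTTCCgccatct
Rpl15 (chr14:18270972-18270996): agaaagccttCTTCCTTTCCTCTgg
The log2 ratios were 2.57 for Rpl38, 1.30 for Rpl28, 0.90 for Rps18, -0.09 for Rps6, -1.54 for Rpl35a and -1.67 for Rpl15. Tracts ran from 8 letters in Rpl38, Rpl28 and Rpl35a to 13 in Rpl15, and the 8-letter tracts of Rpl28 and Rpl35a have the same letters, CTCTTTCC. Of these 6 genes, Rps6 did not pass the test.

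Elongation factors and other mRNAs known to carry TOP tracts were mostly high, with 13 of 22 higher, 4 lower and a median of 0.48. Eef1a1, which delivers aminoacyl-tRNA, had 1182, 1086 and 1034 CPM in RNA and 4821, 4611 and 4693 in footprints, 4.27-fold more (log2 ratio 2.09, SE 0.06), with near-identical copies. Eef2, the translocase, was higher by less, at 0.42 (SE 0.05). Pabpc1, the poly(A)-binding protein, which is known to repress its own mRNA, had 1508, 1566 and 1712 CPM in RNA and 662, 672 and 633 in footprints (log2 ratio -1.28, SE 0.07). Tpt1 was at -1.26, Rack1, a protein of the small subunit, at -0.38, and Eif4a2 did not pass at 0.35 (adjusted p = 0.0611, edgeR). With the median gene set to 0, Rack1 did not pass and Eif4a2 was higher.

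**Figure D3:**
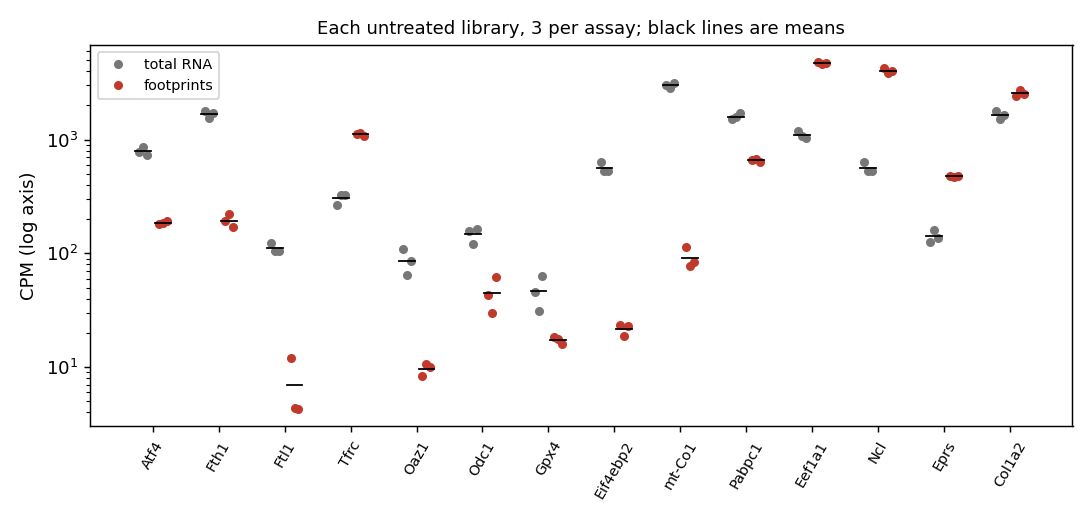
CPM (log axis) of selected genes in each of the 3 untreated RNA libraries and the 3 untreated footprint libraries, with black lines at the means. Footprints lie below RNA in all libraries for Atf4 and Fth1 and above RNA in all libraries for Tfrc and Eef1a1.

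Factors that build ribosomes were among the most heavily loaded. Of 48 tested, 33 were higher and 3 lower, with a median of 0.61, and their summed share went from 0.949% ± 0.0160 of RNA to 1.90% ± 0.0318 of footprints (SD, n = 3). Ncl, nucleolin, had 631, 530 and 525 CPM in RNA and 4255, 3854 and 4055 in footprints, 7.18-fold more (log2 ratio 2.84, SE 0.07, adjusted p = 3.61e-32, edgeR). Npm1, nucleophosmin, had 421, 385 and 444 CPM in RNA and 2099, 1972 and 2194 in footprints (log2 ratio 2.32, SE 0.07). Both were far apart between assays in every library. Ubtf, a transcription factor of ribosomal DNA, was one of the 3 lower ones, at -1.54.

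Cytosolic tRNA synthetases and their scaffold proteins had 18 of 23 genes higher and 0 lower, with a median of 0.77. Lars, for leucine, had 161, 130 and 138 CPM in RNA and 541, 506 and 442 in footprints (log2 ratio 1.79, SE 0.12). Eprs, for glutamate and proline, the enzyme halofuginone binds, had 127, 160 and 137 CPM in RNA and 476, 469 and 476 in footprints (log2 ratio 1.77, SE 0.12). Rars, for arginine, was at 1.47 and Tars, for threonine, at 1.45, while Vars at 0.03, Yars at 0.14, Cars at 0.24, Wars at -0.32 and the scaffold Eef1e1 at -0.43 did not pass. The list thus ran from even to more than 3-fold higher, all on one side among those that passed. Vars, Yars and Cars were higher with the median gene set to 0, which gave 21 higher and 0 lower.

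Chaperones and the proteasome followed the same direction. Of 32 chaperonin and heat shock genes, 23 were higher and 3 lower, with a median of 0.72, and their share went from 1.52% ± 0.0213 to 2.74% ± 0.0613 (SD, n = 3). Cct8, a subunit of the ring that folds actin and tubulin, had 590, 591 and 587 CPM in RNA and 1699, 1516 and 1711 in footprints (log2 ratio 1.48, SE 0.07). Hsp90aa1, a cytosolic HSP90, was higher still at 2.88 (SE 0.14), and Dnajb1, an HSP40 cochaperone, was lower at -0.52. With the median gene set to 0, 26 were higher and 0 lower, and Dnajb1 did not pass. Of 43 proteasome genes, 30 were higher and 3 lower, with a median of 0.62. Psmc6, an ATPase of the regulatory particle, was at 1.97, whereas Psme3, the nuclear activator PA28γ, had 364, 391 and 393 CPM in RNA and 100, 116 and 51.7 in footprints (log2 ratio -2.01, SE 0.15).

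In the list for the endoplasmic reticulum, 9 of 32 genes were higher (28.1%) and 9 lower (28.1%), against 21.5% and 38.7% of all genes. Hsp90b1, the HSP90 of that compartment, had 270, 279 and 284 CPM in RNA and 1853, 1870 and 1840 in footprints (log2 ratio 2.74, SE 0.08). Hspa5 (BiP) had 691, 735 and 742 CPM in RNA and 2562, 2474 and 2692 in footprints (log2 ratio 1.83, SE 0.07), and Pdia3, a disulfide isomerase, was at 1.62. Ern1 (IRE1) at -2.07, Eif2ak3 at -1.06, and the degradation factors Edem1 at -1.47 and Syvn1 at -0.87 were lower. The list's median was -0.09, and its summed share went from 0.861% to 1.49%, and Hspa5, Pdia3 and Hsp90b1 were among its most abundant members in footprints.

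Genes of cell division included several of the highest ratios. Of 38 mitosis genes, 29 were higher and 3 lower, with a median of 0.91, the highest of the 31 lists. Smc4, a condensin subunit, had 73.2, 58.7 and 83.9 CPM in RNA and 603, 595 and 557 in footprints, 8.03-fold more (log2 ratio 3.01, SE 0.13). Cenpe, the kinetochore motor, had 9.41, 18.3 and 21.7 CPM in RNA and 154, 176 and 174 in footprints (log2 ratio 3.40, SE 0.25), and Knl1, a kinetochore scaffold, was at 2.92 (SE 0.24). Their footprints exceeded RNA in every library, but RNA counts were low, 35 for Cenpe and 42 for Knl1 in all 3 libraries. Birc5 (survivin) at -0.79, Ccna2 (cyclin A) at -0.53 and Aurka at -0.38 were the 3 lower genes, Aurka not with the median gene set to 0 (adjusted p = 0.611, edgeR), nor without RNA replicate 3 (adjusted p = 0.0523) or footprint replicate 3 (adjusted p = 0.082).

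DNA replication had 24 of 40 genes higher and 2 lower, with a median of 0.58. Mcm4, a subunit of the replicative helicase, had 226, 191 and 179 CPM in RNA and 672, 601 and 604 in footprints (log2 ratio 1.65, SE 0.11). Pola1, the polymerase of the primase complex, was at 2.79 (SE 0.22). The 2 lower genes were Gins4, a helicase cofactor, at -1.03 and Rfc2, a clamp loader subunit, at -0.78.

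Replication-dependent histones, whose mRNAs end in a stem-loop in place of a poly(A) tail, had 39 of 55 genes higher (70.9%) and 0 lower. These histones had a median of 0.84, and the shares compare with 21.5% higher and 38.7% lower of all genes. The summed share of these histones went from 1.09% ± 0.0737 of RNA to 2.16% ± 0.0509 of footprints (SD, n = 3). Hist1h4k, a histone H4 gene, had 158, 139 and 118 CPM in RNA and 653, 536 and 512 in footprints (log2 ratio 2.04, SE 0.12). Hist1h2ac, a histone H2A gene, had a log2 ratio of -0.16 and did not pass. Replacement variants with poly(A) tails had 2 of 11 higher and 5 lower, or 3 and 3 with the median gene set to 0, near the shares of all genes. The linker histone H1f0 had 445, 479 and 485 CPM in RNA and 123, 160 and 113 in footprints (log2 ratio -1.81, SE 0.12), and H2afx, the variant phosphorylated at DNA breaks, was higher at 0.96. Histone genes of one class are nearly identical, so single values are uncertain.

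Cytoskeletal and matrix genes came next. Of 29 actin and contractile genes, 17 were higher (58.6%) and 5 lower (17.2%), against 21.5% and 38.7% of all genes. The list had a median of 0.46 and a share of 2.73% ± 0.0522 of RNA and 4.29% ± 0.103 of footprints (SD, n = 3). Actb, cytoplasmic actin and the most abundant gene in both assays, had 7368, 7131 and 6905 CPM in RNA and 12370, 13799 and 13720 in footprints (log2 ratio 0.90, SE 0.04). Vim, vimentin, had 4022, 3962 and 3966 CPM in RNA and 8543, 9070 and 9299 in footprints (log2 ratio 1.17, SE 0.04). Myl12a, a myosin regulatory light chain, went the other way at -1.63. Tubulins had 6 of 12 higher (50%), with Tubb5 at 0.71, and 2 lower (16.7%). The lower tubulins were Tuba1b at -0.69, which did not pass with the median gene set to 0, and Tuba1a at -2.37.

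Collagens and their modifying enzymes had 15 of 34 genes higher (44.1%) and 3 lower (8.82%), against 21.5% and 38.7% of all genes. The list's median was 0.20. Col1a1, the alpha-1 chain of type I collagen, had a log2 ratio of 0.34 (SE 0.05) and Col1a2 of 0.62 (SE 0.06). Pcolce, which speeds procollagen processing, had 572, 497 and 429 CPM in RNA and 1188, 1302 and 1230 in footprints (log2 ratio 1.31, SE 0.09), while Loxl2, a crosslinking enzyme, was lower at -1.83. Other matrix glycoproteins had 13 of 27 higher (48.1%) and 4 lower (14.8%). Fn1, fibronectin, was at 0.22 (SE 0.06) and Vcan, versican, at 1.67, and Tnc, tenascin C, was lower at -0.87. Not every fibroblast marker took a larger share of footprints: S100a4 went from a mean of 510.5 to 334 CPM and Twist1, a mesenchymal transcription factor, from 48.7 to 16.8 CPM. The type I collagen and fibronectin differences passed the test while staying under 2-fold.

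The immediate early list, which also holds related factors such as Mafg and Srf, leaned lower. Of its 26 tested genes, 15 were lower (57.7%) and 3 higher (11.5%), against 38.7% and 21.5% of all genes, with a median of -0.66. With the median gene set to 0, 10 were lower and 3 higher, against 29.4% and 30.0% of all genes. Fos, Fosb, Egr2, Btg2 and Zfp36 were on the list but were not tested. The 3 higher ones were Myc, Id1 and Id3, of which Id1 failed without RNA replicate 2 (0.40, adjusted p = 0.0595, edgeR) or footprint replicate 2 (0.33, adjusted p = 0.163). Mafg, a small MAF protein, had 203, 132 and 162 CPM in RNA and 13.3, 9.40 and 11.5 in footprints (log2 ratio -3.84, SE 0.25). Jund, an AP-1 subunit, had 299, 270 and 237 CPM in RNA and 39.4, 60.1 and 44.5 in footprints (log2 ratio -2.49, SE 0.17), and Srf, serum response factor, was at -2.50. Neither Mafg nor Jund overlapped between assays.

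Jun, the sister of Jund, was closer to even at -0.47, and did not pass with the median gene set to 0 or without footprint replicate 1 (-0.29, adjusted p = 0.0848, edgeR). Junb did not pass at 0.21. Myc was higher, with 209, 178 and 185 CPM in RNA and 261, 237 and 273 in footprints (log2 ratio 0.41, SE 0.13). Genes named Zfp, mostly zinc finger proteins, numbered 142 tested of 389 listed, and 73 were lower against 18 higher, with a median of -0.90, which is -0.61 relative to all genes. With no filter on low counts, the median over 324 Zfp genes was -0.02 relative to all genes, so the low median was not seen once genes with few counts were included. Without footprint replicate 3, the median over 143 Zfp genes was -0.43 relative to all genes. Why these values differ was not tested.

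In sterol and fatty acid synthesis, 10 of 36 genes were higher (27.8%) and 11 lower (30.6%), against 21.5% and 38.7% of all genes. The genes named here and in the next lists were chosen after their values were seen or as list extremes. Srebf2, the transcription factor of sterol synthesis, had 826, 770 and 724 CPM in RNA and 210, 239 and 189 in footprints (log2 ratio -1.85, SE 0.10), Scap, its escort, was at -2.30, and the retention proteins Insig1 and Insig2 were at -1.67 and -2.84. Among the enzymes, Hmgcs1 was at 0.86, Fdft1 at 0.96 and Idi1 at 2.18, but Scd1 at -1.39 was low. In the list of autophagy and lysosome genes, 12 of 50 were higher (24.0%) and 21 lower (42.0%), close to the shares of all genes. The autophagy kinases Ulk1 and Ulk2 were at -1.73 and -3.51 and Becn1 at -1.40, Atp6v1f of the lysosomal proton pump was at -1.70, while the lysosomal hydrolase Ctsl had 702, 763 and 681 CPM in RNA and 2022, 2081 and 2267 in footprints (log2 ratio 1.57, SE 0.07). Glycolysis had 10 of 18 genes higher (55.6%), with Aldoa at 1.29, and 2 lower (11.1%), Pdk1 at -1.97 and Gapdh at -1.43, the last with many near-identical copies. Splicing factors of the SR and hnRNP families had 19 of 42 higher (45.2%), such as Hnrnpu at 1.54, and 10 lower (23.8%), such as Hnrnpa0 at -1.87.

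Over all genes with a mean of at least 50 CPM, the lowest ratio was that of Dgcr2, a membrane protein gene of the DiGeorge region, with 185, 171 and 164 CPM in RNA and 1.66, 3.13 and 0.00 in footprints (log2 ratio -6.43, SE 0.33). Wdr77, a partner of the arginine methyltransferase PRMT5, had 112, 97.2 and 138 CPM in RNA and 0.00, 3.76 and 0.00 in footprints. Both lay below the median of the nuclear non-coding RNAs, on 9 and 6 footprint counts in all. Apart from mt-Nd1 and mt-Co1 they were followed by Lsm12 at -5.05, Coa5 at -5.05, Arl2bp at -5.00, Csnk1g2 at -4.75, Nudt3 at -4.72, Eif4ebp2, Gas2l1 at -4.69 and 4833439L19Rik at -4.68.

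At the upper end, behind Eif3j1, stood Esf1, a nucleolar factor, with 9.41, 9.17 and 14.9 CPM in RNA and 220, 192 and 199 in footprints (log2 ratio 4.18, SE 0.25). Next came Cenpe, Bod1l at 3.31, S100a11 at 3.22, Mphosph8 at 3.14, Ckap5, a microtubule polymerase, at 3.07, Smc4, Smc3, a cohesin subunit, at 2.99, Knl1, Nemf, a factor of ribosome quality control, at 2.91 and Hsp90aa1. Among genes of at least 50 CPM on average, one with under 20 CPM of RNA can only have a high ratio, and several of these had that little RNA.

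The treated cells ranked genes by the ratio in a similar order. Over 8035 genes tested in both, untreated and treated log2 ratios, which come from separate libraries, had a Pearson r of 0.822 and a Spearman rho of 0.816. Of 806 genes at least 2-fold higher in untreated footprints, 756 had a ratio above 0 with halofuginone, and of 2116 at least 2-fold lower, 2067 had one below 0. The median treated log2 ratio over all genes was -0.27, so a treated ratio below 0 was the more common state whatever the untreated ratio. The difference between the 2 ratios, tested as the interaction in edgeR over all 12 libraries, passed for 466 of 8595 genes upward (5.42%) and 646 downward (7.52%), and at 2-fold or more for 242 (2.82%) and 394 (4.58%).

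Some list medians were nearly the same in both conditions, such as mitosis genes at 0.91 untreated and 0.89 treated and tRNA synthetases at 0.77 and 0.76. Others differed: selenoproteins were at -0.89 and -0.33, mitochondrial ribosomal proteins at 0.07 and 0.46, histone variants at -0.15 and 0.34, and Zfp genes at -0.90 and -0.50. The medians of the single-gene differences were smaller than these gaps, at 0.21, 0.28, 0.10 and 0.28 in that order. Treated ratios were available for 16 of 17 selenoproteins and 127 of 142 Zfp genes, so their gene sets differed slightly. Mitochondrially encoded mRNAs were at -4.36 and -4.26, but the median of their single-gene differences was 0.65, with 3 of 11 higher and 0 lower. Ribosomal proteins of the large subunit went from 0.25 to 0.62, with a median single-gene difference of 0.58. Of 45, 16 had a higher ratio with halofuginone against 1 with a lower one. Ribosomal proteins of the small subunit went from 0.17 to 0.70, with a median single-gene difference of 0.34, and 12 of 33 were higher and 2 lower. In both lists, the share with a higher ratio was above the 5.42% of all genes.

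**Figure D4:**
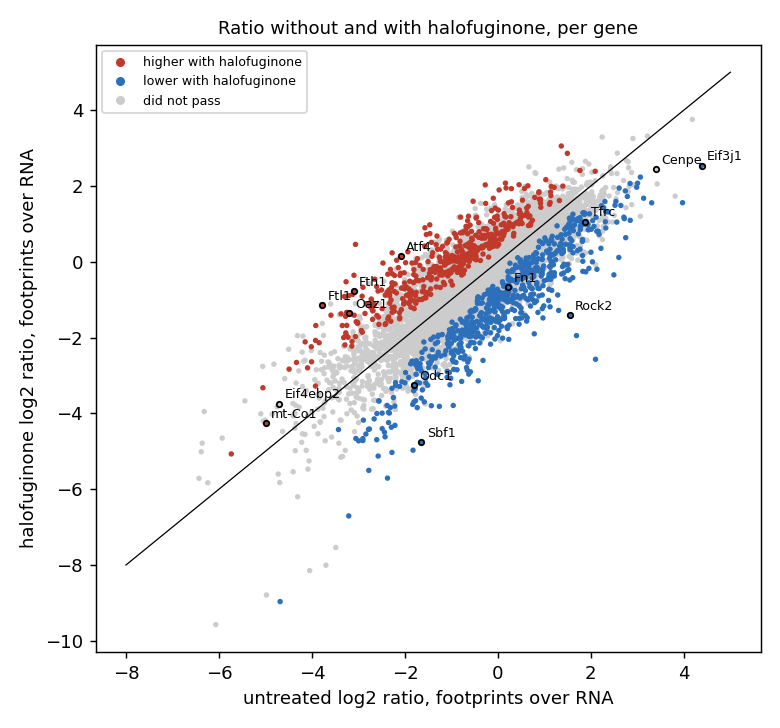
Log2 ratio of footprints to RNA without (horizontal) and with (vertical) halofuginone for 8035 genes tested in both, red and blue where the interaction passed. Points follow the diagonal (Pearson r 0.822), with Atf4 and Fth1 among those above it.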

How the data were processed

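Ribosome footprints and total RNA were compared in the 6 untreated libraries. The authors deposited whole-number counts per gene for each library, without normalization. The submitters' processing notes name Bowtie, HISAT2 and HTSeq with GRCm38, giving no versions, roles or order. Not given in the sources used here are whether coding regions or whole transcripts were counted, whether strand was used, and how reads with several matches were handled, so overlapping and near-identical genes cannot be told apart, and a gene's untranslated length may bear on its ratio, which was not tested. Protein lengths were not used here.

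Of 55536 gene IDs in each table, 55450 matched a symbol and 38652 a RefSeq gene type, which was protein-coding for 21422. CPM and ratios were computed here from the deposited counts, with the nuclear protein-coding total of each library and TMM factors within each assay (0.997 to 1.004). Genes entered with a mean of the 2 assays' mean CPM of at least 10. The ratio was tested with edgeR 4.0.16 in R 4.3.3 (quasi-likelihood test, Benjamini-Hochberg adjustment over all tested genes, threshold 0.05), a method also run on simulated data. An SE is the log2 ratio divided by the square root of its F statistic, and fitted ratios can differ slightly from ratios of mean CPM. The difference with halofuginone was the interaction of assay and treatment over 12 libraries. No spike-in is described, so ratios are relative within an assay.

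The genes named are the 12 highest and 12 lowest ratios with a mean of at least 50 CPM, passing the test without overlap between assays; a fixed set of genes; up to 3 members at each end of every list; and, for halofuginone, the 6 largest differences in each direction. Further list members were named after their values were seen. The members and the 31 lists were chosen with earlier results of these data known. Equal replicate numbers were not treated as pairs, since no label describes a shared culture. Deviations of same-numbered RNA and footprint libraries had correlations of -0.003, 0.005 and 0.024 over 4365 genes. Those of differently numbered libraries ran from -0.026 to 0.022, so these values cannot tell whether same-numbered libraries shared a culture. Totals of 718096 to 2527791 counts leave genes with few counts imprecise. Alternatives were other normalizations (including DESeq2 1.42.0), zero points, library totals and filters, halved counts, the replicate block and leaving out each library. Gene positions and start sequences are RefSeq's for GRCm38.p6.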

Additional observations from a re-analysis of the deposited data

Results flagged for a closer look

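The comparison with halofuginone was read for the 12 highest and 12 lowest untreated ratios, the genes fixed by name and the 6 largest differences in each direction with a mean of at least 50 CPM. In 35 of these genes the ratio of footprints to RNA differed from that of untreated cells by the interaction test in edgeR, after adjustment over 8595 genes. With the extremes of every gene list included, 81 of 220 genes passed. Differences are in log2, halofuginone minus untreated. They subtract the same untreated ratios by which the highest and lowest genes were chosen, so a difference toward the middle is favoured by that choice and nothing is read from its direction.

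Among genes fixed by name that were low untreated, the difference was 2.25 for Atf4, whose treated ratio was 0.15, 2.34 for Fth1 and 2.65 for Ftl1. It was 1.84 for Oaz1 and 2.73 for Amd1, while Odc1 went down further by -1.43. Among the genes lowest untreated, the mitochondrial genes mt-Nd1 and mt-Co1 differed by 0.67 and 0.75 and Lsm12 by 1.73. 4833439L19Rik had 0 footprint CPM in the treated libraries, so its fitted difference of -4.42 depends on the prior count and is no bound.

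Among the genes highest untreated, the values were -1.84 for Eif3j1, -1.75 for Bod1l, -1.45 for Mphosph8, -1.01 for Smc3, -0.92 for Smc4 and -0.82 for Ckap5. Of the genes fixed by name that were high untreated, Tfrc differed by -0.81 and Eprs by -0.59.

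Stress and selenium genes moved upward in Ppp1r15a (1.26), Cebpb (0.74) and Gpx1 (0.70), and downward in Ppp1r15b (-0.89). Of the abundant structural genes, Col1a1 differed by 0.35 and Eef1a1 by 0.30, and Col1a2 by -0.54, Vim by -0.49 and Fn1 by -0.88.

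Among genes with a mean of at least 50 CPM, further large differences upward were 2.52 for Taf1d, 2.44 for Rplp1 and 2.27 for Mrpl12. Downward they were -3.11 for Sbf1, -2.94 for Rock2, -2.76 for Adgra3, -2.55 for Hipk3 and -2.44 for Arfgef1.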

How the results depend on the processing

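The numbers of genes called stayed within 1.5 times under all settings run, except those at least 2-fold higher in footprints, which went from 842 to 1401 with TMM factors over the 6 libraries together and to 1424 with the median ratio set to 0. The first of these gave 2558 genes higher and 2572 lower in all, and the second 2583 and 2534. All calls shared with another setting kept their sign, for example 4756 shared with DESeq2, which called 1656 higher and 3100 lower. Leaving out 1 library at a time gave 1623 to 1777 higher and 2990 to 3229 lower, and for the interaction with halofuginone 351 to 426 and 513 to 630. The replicate block gave 1815 higher and 3245 lower, and 414 and 594 for the interaction. For 176 genes, those whose ratio the report gives and those fixed by name or at the extremes, each value was recomputed. With TMM over the 6 libraries and with the median set to 0, values that did not pass changed sign in 7 genes, to 0.18 and 0.19 for Aco1, 0.17 and 0.18 for Atf5, 0.10 and 0.12 for Eif2b5, 0.12 and 0.13 for Hist1h2ac, 0.044 and 0.055 for Mtor, 0.19 and 0.20 for Rps6, and 0.016 and 0.029 for Spg11. Under these settings 12 genes lost the lower call (Aurka, Azin1, Cebpb, Dnajb1, Eif2ak3, Eif4g3, Ibtk, Jun, Mdm2, Rack1, Tuba1b and Txnrd1) and 6 gained a higher one (Cars, Eif2s3x, Eif4a2, Srm, Vars and Yars). Leaving out 1 library ended the call of 9 genes (Aurka, Eif2ak3, Eif2b1, Ibtk, Id1, Ireb2, Jun, Ppp1r15a and Tmem184c), gave one to 4 (Eef1e1, Eif2ak1, Eif2ak4 and Eif2s3x) and put Vars between -0.044 and 0.080. The remaining settings ended the call of Eif2ak3 and Tmem184c, and gave one to Eif2ak1 and Eif2ak4. The shift in zero point follows from the settings' construction; the cause of the others was not tested. Some list medians relative to all genes also shifted. Polyamine synthesis went from -1.19 to -0.81 with another filter on low counts. Selenoproteins went from -0.60 to -0.44 without RNA replicate 1. Depth limits genes with few counts: 7 had at most 3 footprint counts.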

Other observations

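Some lists had members passing in 1 direction only by the interaction of assay and treatment in edgeR, against 5.42% of all genes with a higher ratio under halofuginone and 7.52% with a lower one. Of 74 nuclear-encoded respiratory chain genes, 14 had a higher ratio with halofuginone and 0 a lower one. Their median was 0.59 untreated and 0.85 treated. Of 26 genes on the immediate early list, 6 were higher and 0 lower, with medians of -0.66 and -0.30. Of 50 autophagy and lysosome genes, 7 were higher and 0 lower, although the list's median was -0.19 untreated and -0.24 treated. The medians of single-gene differences were 0.32, 0.25 and 0.13 for these lists in that order. Actin and contractile genes were mixed, with 4 of 29 higher and 8 lower.

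Low counts were mostly even numbers. In RNA replicate 1, 2 counts were seen for 660 protein-coding genes but 1 count for 44, and 4 counts for 449 but 3 counts for 40. In footprint replicate 1 the same numbers were 648 and 99, and 318 and 84. No reason is stated in the labels. With every count halved, 1874 genes were higher and 3409 lower.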
